A study of Mus musculus with 13 samples.

Results

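The S100 calcium-binding protein genes were followed in 2 sets of RNA-Seq libraries of mouse endothelial cells (ECs). The 9 genes were S100a1, S100a4, S100a6, S100a8, S100a9, S100a10, S100a11, S100a13 and S100a16. They were chosen by symbol, and all 9 were found among 24984 genes listed for the tumor ECs and 24421 listed for the sprout ECs. S100a8 and S100a9 were picked because they were lower in Apelin-depleted tumor ECs. Their difference between the tumor groups is therefore a description of how they were chosen, and no test of it is given for any of the 9 genes. The sprout ECs did not enter that choice. The other 7 genes were taken as well-counted family members to set beside S100a8 and S100a9. Their higher abundance follows from how they were chosen.

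The tumor ECs were DAPI- CD45- CD31+ CD105+ cells sorted from E0771 mammary tumors, which are grown from a C57BL/6 breast cancer cell line injected into the mammary fat pad. The Apelin-depleted group (3 libraries) came from Apln-/- C57BL6/J mice, whose tumor cells carried an shRNA against Apln (shApln). The Apelin wild-type group (6 libraries) came from wild-type C57BL6/J mice, whose tumor cells carried a control shRNA (shRenilla). Host genotype and tumor cell shRNA changed together, so their parts cannot be told apart. Apln was deleted in the germline and so in every host cell. Tumors were taken at day 25, and each library was made by Smart-Seq2 from 100 sorted cells.

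The sprout ECs were CD31+ cells sorted from embryoid bodies (EBs), aggregates of mouse embryonic stem cells (mESCs) that form vessel sprouts in collagen I. The mESCs were female, on a C57BL/6x129 background, and carried an Apln gene trap in 1 of 2 orientations. The sense orientation is called Apln STOP (2 libraries) and the antisense orientation Apln GO (2 libraries). Both lines received 30 ng/mL VEGFA164 from the transfer to collagen at day 8. After sprouting began, Apln STOP cells received DMSO and Apln GO cells Apelin Pyr13 at 1000 nM, as the study's legends give it, and GO cells had also been given a retroviral vector with Cre and mCherry. Trap orientation, vector and added peptide thus changed together, and their parts cannot be told apart. Nothing in the labels says that replicates came from separate cultures or animals, so p-values measure only the spread between these libraries.

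Total counts were 4661044 to 14455093 in the tumor libraries and 12327030 to 16804071 in the sprout libraries. Counts were scaled by library with edgeR's TMM factors (CPM), and 3 counts, used here as the floor of detection, were worth 0.211 to 0.596 CPM in the tumor libraries and 0.177 to 0.244 CPM in the sprout libraries. Apln had 20 to 121 counts in Apelin-depleted tumor ECs against 4262 to 6619 in Apelin wild-type tumor ECs. Apln did not part the sprout groups in this way, since it had 976 and 984 counts in the libraries labelled STOP and 986 and 817 in those labelled GO. The 12 endothelial markers were detected in both sets, led by Eng, Egfl7 and Pecam1 in the tumors. Their summed level in the libraries labelled STOP was 644 and 891 CPM, against 2565 and 2475 CPM in the libraries labelled GO, and 11 of the 12 markers were called lower (edgeR, adjusted p under 0.05 and absolute log2 fold change over 1), beside 3.03% of all genes tested. The sum of 8 pluripotency markers was 5136 to 5274 CPM in the libraries labelled STOP and 2025 to 3265 CPM in those labelled GO. In bulk libraries, fewer cells of a type and less RNA per cell cannot be told apart.

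S100 proteins are small calcium sensors. On binding calcium they expose a surface that docks partner proteins, and most work as dimers. S100A8 and S100A9 pair as calprotectin, which is abundant in neutrophils and monocytes, sequesters zinc and manganese, and activates Tlr4 and Ager (RAGE). S100A10 holds annexin A2 at the plasma membrane and takes part in plasminogen activation at the endothelial surface. S100A4 and S100A6 are abundant in mesenchymal cells, S100A11 binds annexin A1, S100A13 takes part in the release of Fgf1, and S100A1 is best known for control of calcium cycling in heart muscle.

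All 9 genes lie on mouse chromosome 3 (RefSeq, GRCm38.p6), 7 of them in a block of 184688 bases. From the proximal end these are S100a1 (chr3:90511034-90514330, minus strand), S100a13 (chr3:90514233-90524581, plus), S100a16 (chr3:90537254-90543151, plus), S100a4 (chr3:90603770-90606045, plus), S100a6 (chr3:90612894-90614414, plus), S100a8 (chr3:90669071-90670034, plus) and S100a9 (chr3:90692630-90695721, minus). S100a11 (chr3:93520496-93526288, plus) and S100a10 (chr3:93555117-93564645, plus) lie apart. S100a1 and S100a13 are head to head and share 98 bases on opposite strands. Whether counting used strand is not given in the sources used here, so reads in those 98 bases cannot be told apart.

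RefSeq promoter windows, 250 bases before to 50 after an annotated start, were matched for 8 of the 9 genes. For S100a13 this start lies downstream of the gene start given above (chr3:90514233), which falls in the upstream part of its window. The windows of S100a8 and S100a9 are shown because these genes were chosen as lower in Apelin-depleted tumor ECs, and that of S100a13 because it shares 204 of its 300 bases with the window of S100a1. Capitals mark TATAAA, TTGCNNAA (the core searched for C/EBP factors) and GAGGAA (the core searched for PU.1) on either strand. They are given 5′ to 3′ on the strand of the gene, at chr3:90668821-90669120 (plus), chr3:90695672-90695971 (minus) and chr3:90514185-90514484 (plus).
S100a8: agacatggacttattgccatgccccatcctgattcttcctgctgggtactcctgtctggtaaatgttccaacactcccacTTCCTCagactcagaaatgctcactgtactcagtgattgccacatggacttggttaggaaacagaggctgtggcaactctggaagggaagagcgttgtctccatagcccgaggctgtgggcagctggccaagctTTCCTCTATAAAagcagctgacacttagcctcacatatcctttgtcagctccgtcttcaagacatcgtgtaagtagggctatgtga
S100a9: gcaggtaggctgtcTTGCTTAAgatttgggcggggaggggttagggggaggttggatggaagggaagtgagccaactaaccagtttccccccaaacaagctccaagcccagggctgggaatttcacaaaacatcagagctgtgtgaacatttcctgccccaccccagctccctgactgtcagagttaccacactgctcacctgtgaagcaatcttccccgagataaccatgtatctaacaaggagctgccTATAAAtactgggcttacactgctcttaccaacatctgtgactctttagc
S100a13: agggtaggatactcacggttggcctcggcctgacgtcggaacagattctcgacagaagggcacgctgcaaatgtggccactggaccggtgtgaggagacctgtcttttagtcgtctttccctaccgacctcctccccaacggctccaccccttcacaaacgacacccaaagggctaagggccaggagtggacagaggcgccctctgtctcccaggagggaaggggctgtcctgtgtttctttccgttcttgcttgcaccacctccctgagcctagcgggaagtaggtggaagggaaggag
The S100a8 window holds TATAAA beginning 30 bases before the start and GAGGAA on the opposite strand at 36 and 170 bases before it. The S100a9 window holds TATAAA at base 1 after the start and TTGCNNAA at 236 bases before it. No match overlaps another. S100a4 also holds TATAAA, at 31 bases before its start, and GAGGAA is found in S100a4 at base 20 after its start, in S100a11 at 153 and in 1 of the 2 windows of S100a16 at 180 bases before theirs. The windows of S100a1, S100a6 and S100a13 hold none of the 3 motifs. Of 32851 windows of this length, 13.6% hold TATAAA, 10.8% hold TTGCNNAA and 28.3% hold GAGGAA. A match describes letters and not a bound factor.

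The S100 genes differed widely in abundance in tumor ECs. Per kilobase of transcript, S100a6 was the most abundant in Apelin wild-type tumor ECs, at 1846 ± 425 CPM per kilobase (SD, n = 6). S100a10 followed at 777 ± 82.8 and S100a11 at 386 ± 130 CPM per kilobase. Counts of S100a11 may miss reads aligned to several places, which could change its place in this order. S100a6 did not overlap S100a10, nor S100a10 S100a11, between libraries. S100a11, S100a13 (219 ± 61.9), S100a16 (199.9 ± 77.9), S100a4 (197 ± 99.9) and S100a1 (76.0 ± 56.4) each overlapped the next gene in this order. At the bottom were S100a8 at 16.4 ± 12.7 and S100a9 at 8.48 ± 7.83 CPM per kilobase, which overlapped each other. The order from S100a6 to S100a1 was the same in Apelin-depleted tumor ECs, where S100a6 was at 1201 ± 336 CPM per kilobase (SD, n = 3). Together the 9 genes took 0.190% to 0.298% of the counts of a tumor library.

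**Figure D1:**
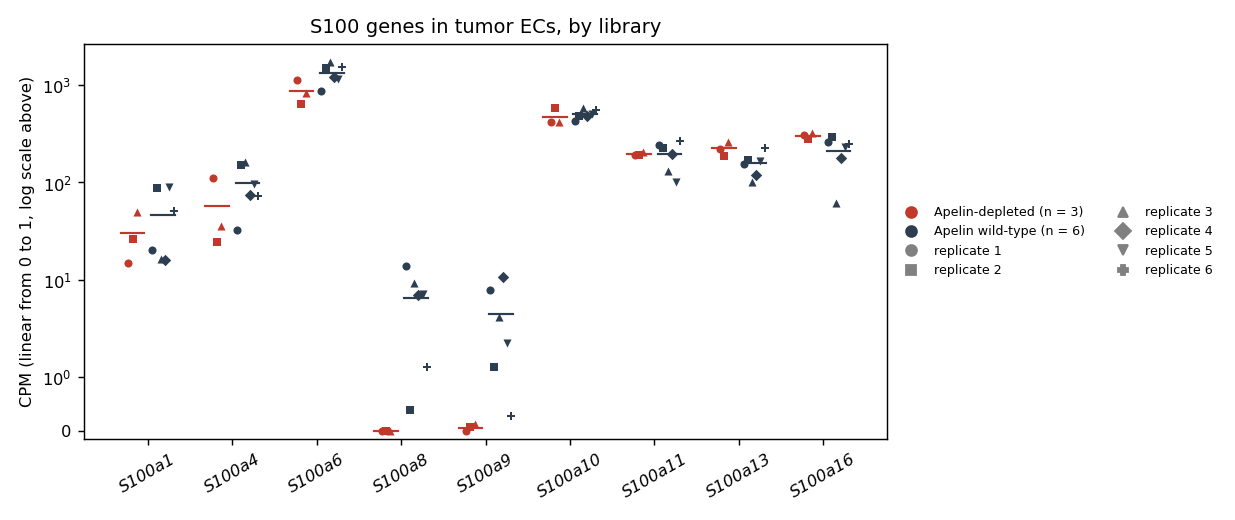
CPM of the 9 S100 genes in each tumor library, on an axis that is linear from 0 to 1 and logarithmic above. Points are libraries, shapes are replicate numbers and bars are group means; the groups are apart in S100a8 and S100a9 and overlap in the other 7 genes.

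S100a8 had 0 counts in each of the 3 Apelin-depleted libraries. In Apelin wild-type replicates 1 to 6 its level was 13.7, 0.391, 9.23, 6.95, 7.12 and 1.27 CPM, from 75, 4, 94, 35, 41 and 9 counts. Every Apelin wild-type library held S100a8 reads, although replicate 2 was close to the floor. The Apelin wild-type mean was 6.45 CPM, beside a mean floor of 0.362 CPM in the Apelin-depleted libraries. Counts there lie under the floor, so a fold is not given.

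S100a9 was at 0, 0.0704 and 0.122 CPM in Apelin-depleted replicates 1 to 3, from 0, 1 and 1 counts. In Apelin wild-type replicates 1 to 6 it was at 7.86, 1.27, 4.13, 10.7, 2.26 and 0.283 CPM, from 43, 13, 42, 54, 13 and 2 counts. The groups did not overlap, but the gap between the nearest libraries was 2 counts against 1. Pooled over libraries, 2 counts stood against 167. The Apelin-depleted counts lie under the floor of 3, so no fold is given. Smart-Seq2 reads carry no molecular identifiers and are not independent molecules, so the floor covers counting error only.

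These were the only 2 of the 9 genes whose tumor groups did not overlap, both lower in Apelin-depleted tumor ECs and none higher. Of all 13073 genes tested, 1.27% did not overlap and were lower, and 1.06% did not overlap and were higher. Since the choice of S100a8 and S100a9 used this contrast, nothing is read from the count. Leaving out Apelin-depleted replicate 2 brought the count to 4, with S100a10 lower (419.9 to 422 CPM against 430.1 to 586) and S100a16 higher (306 to 324 against 62.8 to 291 CPM). S100a6 was apart and lower without Apelin-depleted replicate 1 or without Apelin wild-type replicate 1. S100a16 was apart and higher without Apelin wild-type replicate 2, and S100a13 without Apelin wild-type replicate 6. The share over all genes was not computed for these smaller sets, so nothing is read from their counts.

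S100a8 and S100a9 are markers of neutrophils and monocytes, so these cells' other genes are given beside them. The sort kept CD45- cells, a gate meant to remove leukocytes. The remaining 18 neutrophil markers summed to 416, 251 and 38.3 CPM in Apelin-depleted replicates 1 to 3. In Apelin wild-type replicates 1 to 6 the sum was 50.4, 22.7, 37.4, 129.6, 73.1 and 25.5 CPM. The sums overlapped between groups, and the 2 highest belonged to Apelin-depleted libraries without S100a8. Within the Apelin wild-type libraries, replicates 2 and 6 had the 2 lowest sums and the 2 lowest levels of both S100a8 and S100a9, and replicate 4 was highest in both the sum and S100a9. Their most abundant members were Lcn2, Il1b and Ptprc, which other cells also express. Lcn2, an iron-scavenging lipocalin, was at 126, 245 and 0.731 CPM in Apelin-depleted replicates 1 to 3, against 0 to 18.3 CPM in Apelin wild-type ECs. It made up nearly all of the sum in Apelin-depleted replicate 2. Il1b was at 0 to 220 CPM in Apelin-depleted and 4.24 to 46.4 CPM in Apelin wild-type ECs. Ptprc, the CD45 gene, was at 0 to 39.6 CPM against 0.293 to 59.95 CPM. Mpo and Il1r2 were the tested markers with a lower fitted value in Apelin-depleted ECs, and were named after their values were seen. Mpo, the granule peroxidase, had 0 counts in every Apelin-depleted library and 0 to 3.52 CPM in Apelin wild-type libraries, and Il1r2, a decoy receptor for interleukin 1, was at 0 to 0.850 CPM against 0 to 22.0 CPM. The groups overlapped in both. Of the untested markers, Elane reached 2.78 CPM in an Apelin wild-type library against at most 0.211 CPM in Apelin-depleted ECs, Mmp8 1.56 against 0.170 CPM, Mmp9 3.82 against 0.510 CPM and Trem1 8.93 against 2.38 CPM. Cxcr2 reached 1.19 against 2.04 CPM and Csf3r 1.56 against 1.36 CPM. All 6 had 0 counts in at least 1 library of each group. The remaining 5 were near 0 in both groups. Ngp had 0 counts in all 9 libraries, Ly6g reached 0.596 CPM, Camp 0.199 CPM, Ltf 0.391 CPM and Retnlg 0.397 CPM. Of the 18 markers 7 were tested, 2 with a lower and 5 with a higher fitted value in Apelin-depleted ECs. Mpo and Il1r2 passed the filter on low counts through the Apelin wild-type libraries alone, so no median over the 7 is given.

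The 13 monocyte and macrophage markers, led by Lyz2, Cd14 and Ly6c2, summed to 1109, 54.5 and 195 CPM in Apelin-depleted replicates 1 to 3. In Apelin wild-type replicates 1 to 6 they summed to 217, 137, 223, 628, 151 and 80.7 CPM. Within the Apelin wild-type libraries, replicate 4 was highest and replicate 6 lowest both in this sum and in S100a9. S100a8 was highest in replicate 1, and its 2 lowest libraries, replicates 2 and 6, were also the 2 lowest in this sum. Apelin-depleted replicate 1 had the highest sum of the 9 libraries and no read of S100a8 or S100a9. Of the 13 markers, all tested, 7 had a lower fitted value in Apelin-depleted ECs (Mrc1 -1.79, SE 1.38, on the log2 scale) and 6 a higher one, the 3 leading markers among them (Ly6c2 2.27, SE 1.10), with a median of -0.44. The part of these cells in the level of S100a8 and S100a9 was not tested.

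**Figure D2:**
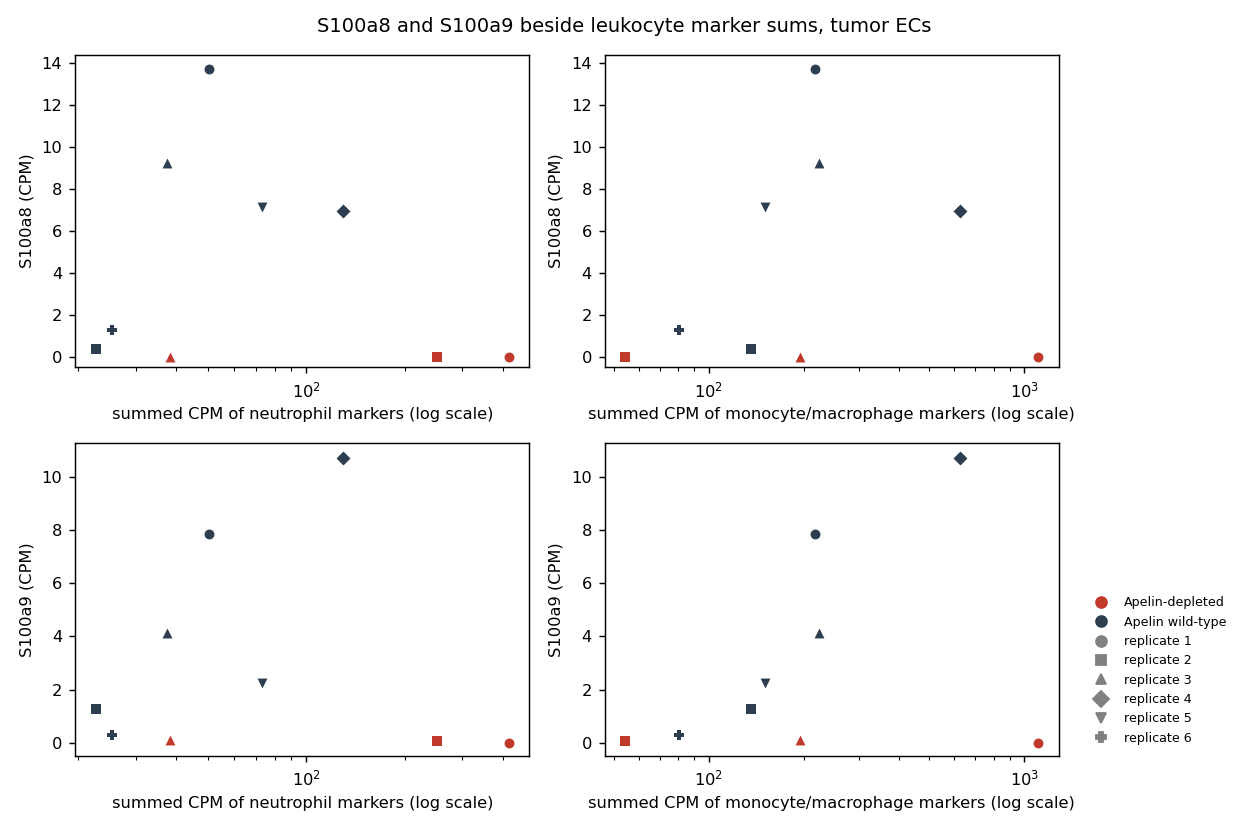
S100a8 (top) and S100a9 (bottom) in CPM against the summed CPM of 18 neutrophil markers (left) and 13 monocyte and macrophage markers (right, log axes) in 9 tumor libraries. Apelin-depleted libraries lie along the bottom at marker sums from 38.3 to 416 CPM (left) and 54.5 to 1109 CPM (right), overlapping the sums of the Apelin wild-type libraries and reaching above them.

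Within the 6 Apelin wild-type libraries, S100a8 and S100a9 varied in the same direction but loosely. On log2(CPM + 1) the Pearson r was 0.78 (exact permutation p = 0.0819, two-sided, 6 libraries) and Spearman's rho was 0.60 (exact permutation p = 0.242). Without replicates 2 and 6, the libraries farthest from the median of S100a8, r was 0.249 over the 4 that remain. Leaving out the extremes of S100a8 also narrows its range, so this value and the pooled r are given as a description. No other relation between S100 genes was tested. Over the same libraries S100a9 ranked 351 of 13072 genes by likeness to S100a8. The 5 genes most like S100a8 were Nt5dc3 (r = 0.985), Zwilch (0.983), Ccne1 (0.983), Pank3 (0.978) and Tppp (0.975), and 67 genes reached an r of 0.9. These r are a description over 6 libraries that share 1 depth and scaling each.

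The other 7 S100 genes, taken as well-counted family members, had tumor groups that overlapped. S100a6 was at 1119, 639 and 832 CPM in Apelin-depleted replicates 1 to 3 and ranged from 880.2 through a median of 1348 to 1716 CPM in Apelin wild-type ECs, a log2 fold change of -0.62 (SE 0.29). Only Apelin-depleted replicate 1 lay within the Apelin wild-type range. S100a4 was at 111, 24.6 and 35.8 CPM against 32.5 to 163 CPM with a median of 85.1, a log2 fold change of -0.79 (SE 0.53). Apelin-depleted replicate 1 was again the highest of its group, and without it the value was -1.71. S100a1 was at 14.8, 26.5 and 49.8 CPM against 16.1 to 89.3 CPM with a median of 35.8, a log2 fold change of -0.62 (SE 0.63). It was -0.29 without Apelin-depleted replicate 1 and -1.17 without replicate 3.

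Differences in S100a10 and S100a11 between the tumor groups were smaller than their SE. S100a10, the annexin A2 partner, was at 422, 581 and 422 CPM against 429.6 to 579.8 CPM with a median of 495, a log2 fold change of -0.09 (SE 0.25). S100a11 was at 190.5, 193 and 208 CPM against 101 to 268 CPM with a median of 211, a log2 fold change of 0.02 (SE 0.32). S100a13 and S100a16, neighbours on the chromosome, had higher means in Apelin-depleted ECs. S100a13 was at 219, 189 and 263 CPM against 102 to 228 CPM with a median of 162, a log2 fold change of 0.51 (SE 0.30). S100a16 was at 307, 277 and 324 CPM against 62.1 to 292 CPM with a median of 240.04, a log2 fold change of 0.51 (SE 0.37). Of the 12 endothelial markers, 11 had a higher fitted value in Apelin-depleted ECs too. Their median was 0.33 on the log2 scale, beside -0.03 over all genes tested, and they summed to 10781 to 14149 CPM against 8480 to 12336 CPM. The part of this in S100a13 and S100a16 was not tested.

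Of the 7 genes other than S100a8 and S100a9, 4 had a lower and 3 a higher fitted value in Apelin-depleted tumor ECs. Their median log2 fold change was -0.09, beside -0.03 over all genes tested. S100a8 and S100a9 passed the filter on low counts through the Apelin wild-type libraries alone, so no median over all 9 is given. Fibroblast and mural markers, whose cells express S100a4 and S100a6, summed to 6485 CPM in Apelin wild-type replicate 2, against 96.8 to 427 CPM in the other Apelin wild-type and 89.3 to 223 CPM in the Apelin-depleted libraries. Of the 11 markers tested, 10 had a lower and 1 a higher fitted value in Apelin-depleted ECs, with a median of -2.52 on the log2 scale, beside -0.03 over all genes tested. Col3a1 (1.97 to 23.1 against 28.3 to 1219 CPM) and Pdgfrb (0.141 to 2.44 against 3.65 to 167.7 CPM) were lower without overlap, beside 1.27% of all genes. Among the Apelin wild-type libraries S100a4 was highest in replicate 3 (163 CPM, with 150.2 in replicate 2) and S100a6 in replicate 3 (1716 CPM, with 1494 in replicate 2), where the marker sum was 247 CPM. The part of these cells was not tested. Without replicate 2, the log2 fold change of S100a4 was -0.62, of S100a6 -0.58 and of S100a1 -0.35.

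In the sprout ECs, where S100 genes took 0.0156% to 0.0278% of the counts, S100a11, S100a10 and S100a6 led in the deposited TPM, which accounts for length. In the libraries labelled GO, S100a11 was at 513 ± 87.2 TPM (SD, n = 2), S100a10 at 294 ± 75.3 and S100a6 at 128 ± 102.9 TPM, and their ranges did not overlap. S100a13 and S100a1 followed at 27.5 ± 1.44 and 26.8 ± 2.63 TPM with overlapping ranges, then S100a16 at 15.4 ± 0.898 and S100a4 at 3.24 ± 3.85 TPM. In the libraries labelled STOP the order was the same, overlaps were between S100a11 and S100a10, S100a6 and S100a13, and S100a16 and S100a4, and means ran from S100a11 at 285 ± 58.6 TPM to S100a4 at 3.07 ± 2.57 TPM. S100a8 had 2, 0, 5 and 0 HTSeq counts and S100a9 had 1, 1, 0 and 3 in STOP replicates 1 and 2 and GO replicates 1 and 2. These are mostly at or under the floor of 3 counts, and neither gene was tested.

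**Figure D3:**
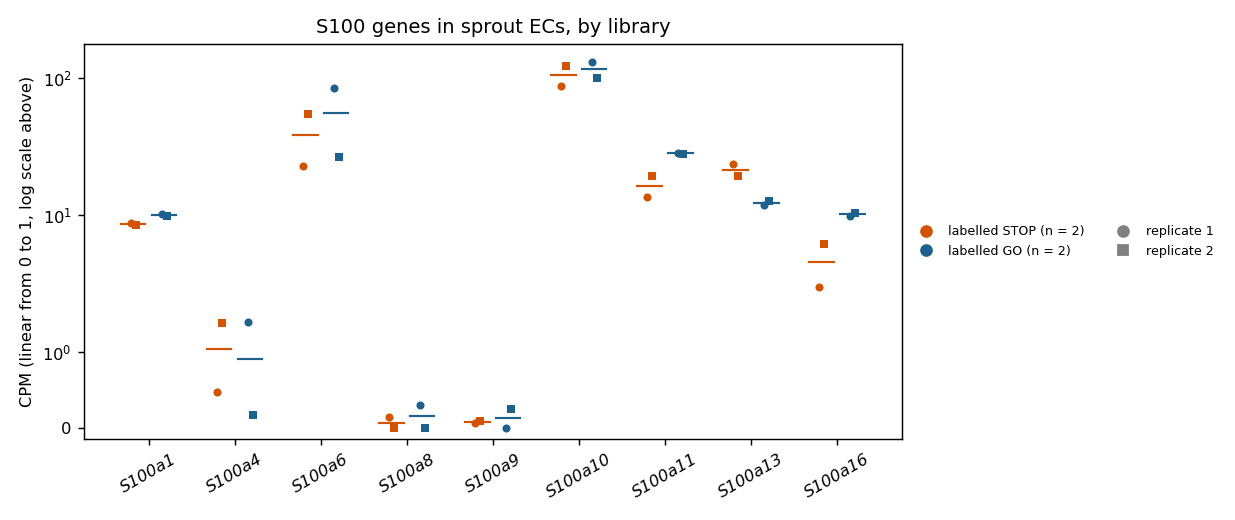
CPM of the 9 S100 genes in each sprout library, on an axis that is linear from 0 to 1 and logarithmic above. Points are libraries, shapes are replicate numbers and bars are means of 2; S100a1, S100a11 and S100a16 are lower in both STOP libraries than in both GO libraries, and S100a13 is higher.

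No S100 gene passed the thresholds between libraries labelled STOP and GO, an adjusted p under 0.05 and an absolute log2 fold change over 1 by edgeR's quasi-likelihood test, adjusted by Benjamini-Hochberg over 14557 genes. The count was 0 of 7 tested, where 3.03% of all genes tested were called lower and 0.852% higher, and DESeq2 also called 0. At an unadjusted p under 0.05, 2 of the 7 were lower (S100a11 and S100a16) and 1 higher (S100a13), beside 14.3% and 12.4% of all genes. The libraries did not overlap in 3 that were lower (S100a1, S100a11, S100a16) and 1 that was higher (S100a13), beside 29.6% and 31% of all genes. With 2 libraries a group, such an order is common.

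S100a13, which takes part in the export of Fgf1, was at 23.4 and 19.1 CPM in the libraries labelled STOP and at 11.7 and 12.6 CPM in those labelled GO. Both STOP libraries lay above both GO libraries. The log2 fold change was 0.81 (SE 0.22, 95% interval 0.30 to 1.32, edgeR adjusted p = 0.0697). Over the alternatives its adjusted p ran from 0.00707 to 0.344. With DESeq2 it was 0.0326, and the gene was not called since its fold change was under the threshold. S100a11 was at 13.5 and 19.1 CPM against 28.2 and 27.8 CPM, lower in both STOP libraries. Its log2 fold change was -0.78 (SE 0.22, 95% interval -1.30 to -0.27, edgeR adjusted p = 0.0790). S100a16 was at 2.98 and 6.11 CPM against 9.79 and 10.3 CPM, from 44 to 166 counts. Its log2 fold change was -1.15 (SE 0.38, 95% interval -2.02 to -0.29, edgeR adjusted p = 0.107). Adjusted p-values of S100a16 over the alternatives ran from 0.00766 to 0.450, and it was called without the filter on low counts, with crossed replicate numbers as a block and without STOP replicate 2.

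S100a1 was at 8.67 and 8.47 CPM against 10.1 and 9.85 CPM, with replicates close together and a log2 fold change of -0.22 (SE 0.25, 95% interval -0.80 to 0.36, edgeR adjusted p = 0.617). S100a10 was at 86.4 and 122 CPM against 129.9 and 100.1 CPM, a log2 fold change of -0.14 (SE 0.21, 95% interval -0.63 to 0.35, edgeR adjusted p = 0.699). The sprout and tumor differences of S100a16 were opposite in sign (-1.15 and 0.51), and those of S100a13 the same (0.81 and 0.51). The libraries of the 2 sets were prepared differently, and the difference between the sets was not tested. Over the 7 tested genes 5 were lower and 2 higher in the libraries labelled STOP, with a median log2 fold change of -0.22 beside 0.01 over all genes.

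S100a4 and S100a6 differed more within the sprout groups than between them. S100a6 was at 22.6 and 54.0 CPM in STOP replicates 1 and 2 and at 84.2 and 26.2 CPM in GO replicates 1 and 2. STOP replicate 2 and GO replicate 1 were high, the other two low. The log2 fold change was -0.54 (SE 0.87, 95% interval -3.42 to 2.34, edgeR adjusted p = 0.752). S100a4 was high in the same 2 libraries, at 0.474 and 1.63 CPM against 1.65 and 0.161 CPM, from 7, 20, 28 and 2 counts. Its log2 fold change was 0.11 (SE 1.02, 95% interval -2.38 to 2.60, edgeR adjusted p = 0.955). The 12 fibroblast and mural markers, led by Col1a1, Col3a1 and Col1a2, summed to 548 and 3260 CPM in the STOP libraries and to 3417 and 756 CPM in the GO libraries, high in the same 2 libraries. None of the 12 was called, and the part of such cells in S100a4 and S100a6 was not tested. S100a11, S100a16 and S100a1 were instead low in the 2 libraries with the lower endothelial marker sum, and the part of that sum was not tested either. Of the 8 pluripotency markers, 7 had a higher and 1 a lower fitted value in the libraries labelled STOP, with a median log2 fold change of 0.895. Those 7 were higher without overlap, like S100a13, beside 31% of all genes. The part of this in S100a13 was not tested.

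**Figure D4:**
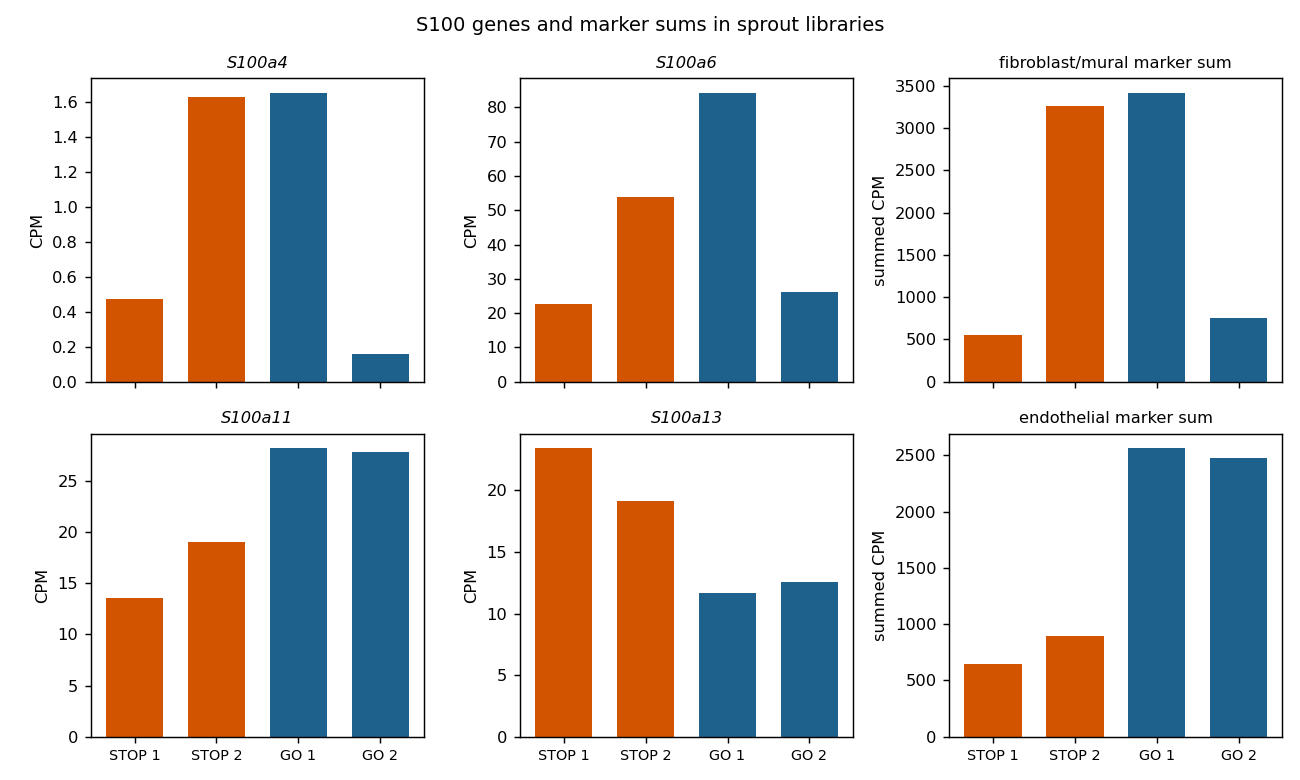
Bars give CPM of S100a4, S100a6, S100a11 and S100a13, and summed CPM of 12 fibroblast/mural and 12 endothelial markers, in the 4 sprout libraries. S100a4, S100a6 and the fibroblast/mural sum are high in STOP 2 and GO 1, while S100a11 and the endothelial sum are lower in both STOP libraries.

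The level of S100a11 in the sprout ECs depended on how reads were counted. HTSeq, which drops reads aligned to several places, gave 200, 234, 478 and 345 counts in STOP replicates 1 and 2 and GO replicates 1 and 2. RSEM, which shares such reads out only between the transcripts of its annotation, gave 1183, 1349, 2731 and 1751 expected counts. The ratio over the 4 libraries was 5.58, against 0.982 to 0.994 for the other 6 genes with enough counts. Over 14511 genes with a mean of at least 10 counts the median ratio was 0.997, and 2.14% of genes had a ratio at or above that of S100a11. Of the 462 windows of 50 bases in the S100a11 transcript, the read length of the study, 41.1% also occur in transcripts of other genes of GENCODE release M21. These are 3 processed pseudogenes, of which Gm12854 (chr4:116067268-116067564, plus strand, GRCm38) shares 190 windows. None of the 3 is listed in the count tables. RSEM thus had no entry to share their reads with, and its counts of S100a11 may include reads from them. S100a4 shares 56.3% of its windows with the overlapping gene model Gm42674 on the same strand, and the other 7 genes share none. The ratio of S100a4 was 0.982. The part of shared windows in the ratio of S100a11 was not tested.

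**Figure D5:**
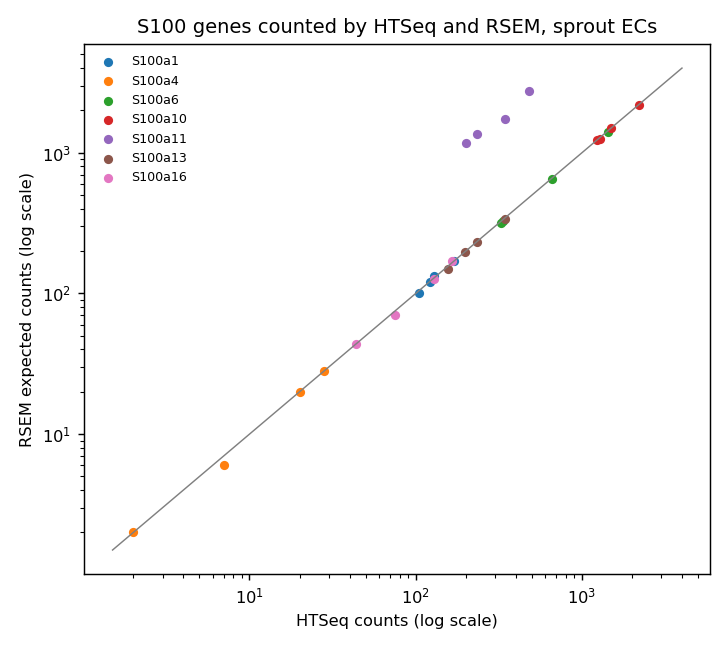
RSEM expected counts against HTSeq counts for 7 S100 genes in the 4 sprout libraries, both axes logarithmic, with the line of equal counts. S100a11 lies above the line at ratios of 5.07 to 5.91 and the other genes lie close to it.

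The change of S100a11 between libraries labelled STOP and GO was alike with both counts, at a log2 fold change of -0.70 (SE 0.18, edgeR adjusted p = 0.0796) with RSEM. Over all alternatives its adjusted p ran from 0.00449 to 0.394. With RSEM 0 of 7 tested S100 genes were called as well, and 2 lower and 1 higher had an unadjusted p under 0.05. The TPM order rests on RSEM's counts of S100a11, which may include reads from the processed pseudogenes. The tumor counts were made with featureCounts only, so levels of S100a11 in tumor ECs have no such comparison and may likewise miss reads aligned to several places.

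Genes that work with S100 proteins were followed as a list of 18. In the sprout ECs 0 of 16 tested partners were called by edgeR, beside 3.03% of all genes called lower and 0.852% higher. Anxa2, Anxa5, Anxa6, Tlr4 and Ager had lower values with an unadjusted p under 0.05, and Cacybp and Atp2a2 higher values, beside 14.3% and 12.4% of all genes. DESeq2 called 1, Anxa6, a calcium-dependent membrane-binding protein with a log2 fold change of -1.28 by edgeR (SE 0.29, adjusted p = 0.0687). Anxa2, which S100A10 anchors, was at 195.8 ± 45.5 CPM in the libraries labelled STOP and 285 ± 46.3 CPM in those labelled GO (SD, n = 2), a log2 fold change of -0.54 (SE 0.20, edgeR adjusted p = 0.139). Anxa1, the partner of S100A11, differed within groups like S100a6, at 8.60 and 31.2 CPM against 43.7 and 9.52 CPM (log2 fold change -0.43, SE 1.17, edgeR adjusted p = 0.850). Ahnak, a scaffold bound by the S100A10 and annexin A2 complex, was at 100.5 and 134.5 CPM against 249.5 and 99.6 CPM (log2 fold change -0.57, SE 0.54, edgeR adjusted p = 0.571).

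In the tumor ECs 17 partners were tested, 9 with a lower and 8 with a higher fitted value in Apelin-depleted ECs, and none was apart between groups. Their median log2 fold change was -0.04, close to -0.03 over all genes. Anxa2 was at 2449.9 ± 85.0 CPM (SD, n = 3) in Apelin-depleted and 2071 ± 614 CPM (SD, n = 6) in Apelin wild-type tumor ECs, a log2 fold change of 0.24 (SE 0.30). Of the 4 listed receptors of S100A8 and S100A9, Cd36 had a log2 fold change of -0.71 (SE 0.65) and Bsg of -0.04 (SE 0.29). Tlr4 was at 39.2 ± 4.84 CPM against 27.7 ± 15.9 CPM (log2 fold change 0.50, SE 0.48). Ager was at 13.9 ± 12.5 CPM against 1.21 ± 2.41 CPM, and its groups overlapped (log2 fold change 3.46, SE 1.44). In the sprouts none of the 4 was called. For Tlr4 and Ager the libraries labelled STOP lay below those labelled GO, as in 29.6% of all genes, and for Bsg they lay above, at 908 and 967 CPM against 823 and 813 CPM, as in 31% of all genes. Cd36 had 1 to 3 counts in a sprout library and was not tested. Tlr4 was at 1.83 and 4.40 CPM against 8.91 and 6.21 CPM (log2 fold change -1.29, SE 0.46, edgeR adjusted p = 0.130), and Ager at 1.22 and 1.96 CPM against 3.66 and 5.25 CPM (log2 fold change -1.49, SE 0.44, edgeR adjusted p = 0.0884). The difference between the sets was not tested. Anxa5, another annexin, had a sprout log2 fold change of -1.45 (SE 0.46, edgeR adjusted p = 0.165). Tlr4, Ager, Anxa5, Anxa6, Cacybp and Atp2a2 were named after their values were seen.

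The other 8 S100 genes looked for were scarce, as the choice of well-counted members implies. None was tested in tumor ECs, and only S100a3 had 10 or more counts in a library, reaching 8.69 CPM in Apelin wild-type replicate 5 against at most 1.10 CPM in Apelin-depleted ECs. In the sprouts S100a14 and S100g were tested and 0 were called by edgeR, with 1 lower at an unadjusted p under 0.05, beside 14.3% of all genes. S100a14 was at 0.325 ± 0.115 CPM against 1.41 ± 0.848 CPM (log2 fold change -2.09, SE 0.70, edgeR adjusted p = 0.115), and S100g at 1.36 ± 0.961 against 2.26 ± 0.565 CPM (log2 fold change -0.76, SE 0.59, edgeR adjusted p = 0.438). S100a2, S100a5 and S100z had 0 counts in every sprout library.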

How the data were processed

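RNA-Seq libraries of 9 tumor and 4 sprout EC samples were analysed, grouped by their labels. The names STOP (sense) and GO (antisense) come from the study. For tumor ECs the authors deposited featureCounts counts per gene, without normalization. The submitters' notes name Trim Galore 0.5.0 and Bowtie2 2.3.4.1 for these reads and the study's methods name STAR, so the aligner is uncertain. For sprout ECs the authors aligned to mm10 with STAR 2.5.0a and deposited HTSeq 0.6.1p1 counts, RSEM 1.2.25 expected counts and TPM. HTSeq's 5 closing lines, 54.1% to 59.1% of the tally, were left out. Its line for alignments that were not unique held 42.6% to 49.6% of the tally. Expected counts were rounded before fitting.

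The 9 genes and all lists were chosen with earlier results of these data known. Each set was fitted separately in edgeR 4.0.16 (R 4.3.3; TMM, filterByExpr with a minimum of 10 counts, robust quasi-likelihood), with Benjamini-Hochberg adjustment over 13073 (tumor) or 14557 (sprout) genes. A gene was called at an adjusted p under 0.05 and an absolute log2 fold change over 1. Fold changes are Apelin-depleted over wild-type, or STOP over GO. Named genes were the 9 members, other S100 genes with 10 counts in a library, called partners plus Anxa2, Anxa1 and Ahnak, the leading and undetected markers of each list, and the 5 genes most like S100a8. Other named partners and markers, and S100 genes at 0, were added after their values were seen. Same-numbered libraries did not deviate together (r across genes -0.07, 0.06 and -0.14 in tumor, -0.43 in sprout ECs), so no block was used. Alternatives were DESeq2 1.42.0, its size factors, other filters, RSEM, a replicate block, no fold threshold and leaving out each library.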

Additional observations from a re-analysis of the deposited data

Results flagged for a closer look

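S100a16 in Apelin wild-type tumor ECs had 1 library far from the others. Replicate 3 was at 62.1 CPM, where the other 5 lay between 178 and 292 CPM. On log2(CPM + 1) its gap to the nearest library was 0.678 of the range of the group, above Dixon's 95% critical value of 0.625 for 6 samples. This was 1 of 9 S100 genes looked at, each over the 6 Apelin wild-type tumor libraries only, and chance flags about 1 in 20.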

How the results depend on the processing

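Fitted values in tumor ECs moved by less than the spread between libraries in 126 of 126 re-computations, and in sprout ECs 69 of 77 kept direction and call. With a library left out, tumor values still ran from -1.71 to -0.43 in S100a4, -1.17 to -0.29 in S100a1, -0.26 to -0.01 in S100a10, -0.85 to -0.45 in S100a6, 0.32 to 0.62 in S100a16 and -0.11 to 0.13 in S100a11. No S100 gene was called in the sprouts, but 1, S100a16, was called with no filter on low counts (log2 fold change -1.15, edgeR adjusted p = 0.0371), with crossed replicate numbers as a block, chosen after seeing the data (-1.20, adjusted p = 0.00766), and without STOP replicate 2 (-1.76, adjusted p = 0.0489). Without STOP replicate 1 it was -0.70 (adjusted p = 0.450). Its adjusted p over all alternatives ran from 0.00766 to 0.450. Leaving out each library, which takes the lone library of a group to vary like the other group, 0 to 1 S100 genes were called. Partner genes called were 1 with DESeq2 (Anxa6), 1 with no filter (Ager), 5 with crossed numbers (Anxa5, Anxa6, Plat, Ager, Tlr4) and 0 to 3 with a library left out (without STOP replicate 2 Anxa5, Anxa6 and Plat, and without GO replicate 2 Ahnak). Fold changes reversed in S100a4, S100a6 and S100a10 when a library was left out, with ranges of -1.005 to 2.61, -1.32 to 0.54 and -0.43 to 0.11. Genes with a lower fitted value in the sprouts numbered 3 to 6, with 3 of 7 without GO replicate 1. Genes apart between tumor groups numbered 2 to 4, with no share over all genes computed for the smaller sets. The causes were not tested. With the replicate number as a block, 0 S100 genes were called in the sprouts (S100a16 -1.23, adjusted p = 0.199), and over all sprout genes the block left 41 lower and 3 higher calls against 441 and 124 without it, 933 and 302 with crossed numbers and 628 and 197 with DESeq2. The block changed no call of an S100 gene. In tumor ECs it moved S100a1 to -0.22, S100a4 to -1.21 and S100a16 to 0.81. Depth limits S100a8 and S100a9, whose Apelin-depleted levels lie under the floor, and S100a4 in the sprouts.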
